A study of Mus musculus with 12 samples.

Results

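The dependence of the bleomycin response of mouse lung on the FIZZ2 genotype was measured on 12 of the series' 12 arrays. For each gene, the response of a genotype is the mean log2 value of its bleomycin lungs minus that of its saline lungs, and the quantity followed here is the knockout response minus the wild type response. There were 4 groups of 3 arrays: saline and bleomycin lungs of wild type mice, and saline and bleomycin lungs of FIZZ2 knockout mice. All mice were C57BL/6, and lungs were taken 21 days after the agent had been placed in the trachea and after perfusion with buffer. The knockout is given by name only, and its allele, the sex and age of the mice and the bleomycin dose are not given in the sources used here. The labels do not state that the 3 samples of a group are separate animals. The p-values therefore measure the spread between these samples, which may be technical.

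Bleomycin breaks DNA. In the mouse lung it injures the epithelium, draws in monocytes and macrophages, makes cells divide and leaves a scar rich in collagen, elastin and matricellular proteins. FIZZ2, also called RELM-beta, is the product of Retnlb, a small resistin-like protein that cells secrete, best known from gut goblet cells and from lungs under type 2 inflammation. In such inflammation interleukin-4 and interleukin-13 act through STAT6, and macrophages take on an alternatively activated state marked by Arg1 and Retnla.

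The arrays were alike in overall level, with medians between 5.58 and 5.68 and correlations between 0.988 and 0.997 within groups (12 pairs, across probe sets, which are not independent replicates). Lung markers were bright, with log2 means over the 12 arrays of 14.17 for the surfactant gene Sftpc, 14.10 for the club cell gene Scgb1a1, 13.84 for the alveolar type 1 gene Ager and 11.90 for the endothelial gene Cldn5. Retnlb itself lay between percentiles 17 and 31.1 of an array's probe sets in every sample, so its level does not check the genotype labels. Knockout bleomycin replicate 1 stood apart from the other knockout bleomycin arrays. Over the 343 genes whose average response over both genotypes was called and at least 2-fold, its median response in the direction of that average was 0.48, against 0.92 and 0.91 in replicates 2 and 3. The corresponding wild type values were 2.14, 1.76 and 1.79, and wild type replicate 1 had the largest response of its 3 arrays for 67.1% of these genes.

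The responses of the genotypes differed for 914 of 18194 genes (5.02%; limma, Benjamini-Hochberg adjusted p under 0.05 over all genes), and the difference was below 0 for 545 (3%) and above 0 for 369 (2.03%). At least a 2-fold difference was found for 307 of them, 229 below and 78 above 0. The count was 380 without knockout saline replicate 1, 455 without knockout saline replicate 2, 512 without knockout saline replicate 3, 400 without knockout bleomycin replicate 1 and 501 without wild type saline replicate 1. The SE of the difference had a median of 0.14 over genes, and its median value over all genes was 0.04. The wild type response was called for 5045 genes (27.7%) and the knockout response for 594 (3.26%). The knockout count was 246, 211 and 292 without knockout saline replicates 1, 2 and 3, and 245 and 292 without knockout bleomycin replicates 2 and 3.

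A response was termed lost where it was called in wild type lungs, not called in knockout lungs, and the difference itself was called toward 0. This held for 764 genes (4.2%), of which 434 rose and 330 fell in wild type lungs. The 95% interval of the knockout response uses 1 variance per gene, pooled over all groups, so spread among wild type arrays widens it. For 599 of the lost genes this interval lay wholly under 0.5 times the wild type response. For the other 165 it reached 0.5 times or more. Lost thus means that the knockout response missed the adjusted threshold, and a partial response can be present, as in Lox below. A response was termed reduced where it was called in both genotypes in the same direction with a called difference toward 0, which held for 103 genes (0.566%), 96 rises and 7 falls. The median knockout response of the reduced genes was 42.4% of the wild type response on the log2 scale. Lost and reduced genes were chosen by these calls, so their medians describe them and test nothing. With the 1 gene that turned, they make 868 genes (4.77%). A further 3810 genes were called in wild type lungs and not in knockout lungs without a called difference, and for these no loss was shown. The number of lost genes was 413 without wild type saline replicate 1, 504 without wild type bleomycin replicate 1, 334, 411 and 447 without knockout saline replicates 1, 2 and 3, and 279 without knockout bleomycin replicate 1. The number of reduced genes was 64 without wild type saline replicate 1, 34, 34 and 49 without knockout saline replicates 1, 2 and 3, and 41 and 64 without knockout bleomycin replicates 2 and 3.

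A response was termed kept where the average over genotypes was called, the difference was not, and the 95% interval of the difference lay within 0.5 times the average response on either side of 0, so that the knockout response lay between 0.6 and 1.67 times the wild type response. The rule was met by 7 genes (0.0385%): Mmp12, Gpnmb, Col3a1, Sparc, Ifitm6, Cped1 and Amz1. The average response of 4175 further genes was called with neither a called difference nor an interval narrow enough, and these are unresolved (22.9%). A further 13098 genes (72%) had no called average response and no called difference. Of the 470 genes called in the same direction in both genotypes, 104 had a called difference, 7 were kept and 359 unresolved. The number of kept genes was 4 without wild type bleomycin replicate 3, 22 without knockout bleomycin replicate 1 and 11 without knockout bleomycin replicate 3.

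The size of the response can be compared on the 4934 genes called in the average over genotypes (27.1%). With equal variance in all groups, as the model assumes, that average is uncorrelated with the difference in this balanced design. Where the spread differs between groups, as in Arg1 below, they can be correlated, and the effect on the comparison was not tested. Over the 4934 genes the median response in the direction of the average was 0.23 in knockout and 0.48 in wild type lungs. The ratio was 0.465, and the response was smaller in knockout lungs for 4233 (85.8%). Rising genes had a ratio of 0.445 and falling genes 0.481. Of the 343 genes with an average change of at least 2-fold, 93% had the smaller response in knockout lungs, and 191 (55.7%) had a called difference. Without knockout bleomycin replicate 1 the ratio was 0.528.

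**Figure D1:**
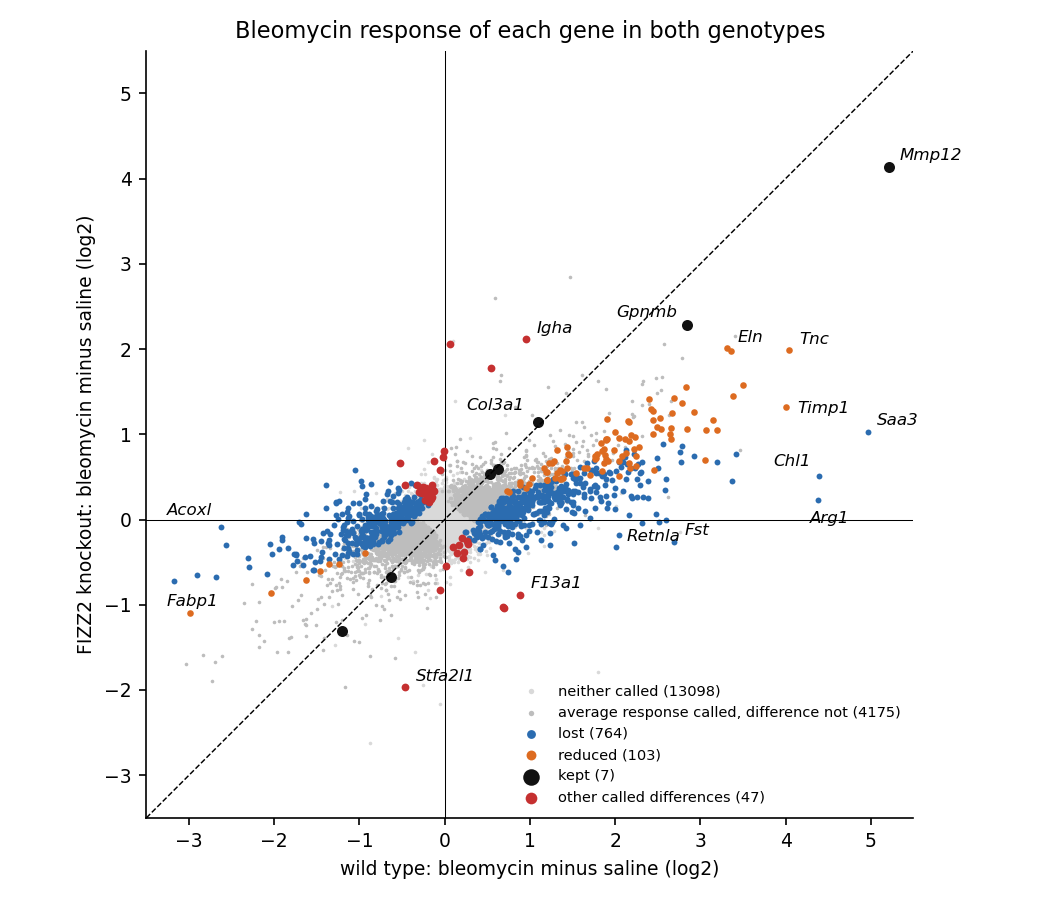
Response to bleomycin of each of the 18194 genes in wild type lungs (horizontal axis, log2) and in FIZZ2 knockout lungs (vertical axis, log2), coloured by class, with equal responses on the dashed line. Lost genes (764) lie along the horizontal axis, the 103 reduced genes between it and the dashed line, and the 7 kept genes, with Mmp12 at 5.21 and 4.14, on or near the dashed line.

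The largest difference of all 18194 genes was that of Arg1. Arg1, which encodes the arginase of such macrophages, had log2 values of 5.00, 5.25 and 4.87 in wild type saline lungs, 10.85, 9.09 and 8.31 in wild type bleomycin lungs, 5.55, 5.70 and 5.73 in knockout saline lungs and 5.72, 6.03 and 5.90 in knockout bleomycin lungs. The wild type bleomycin arrays lay above the other 9, whereas the knockout bleomycin arrays overlapped their saline controls. Arg1 rose 20.8-fold in wild type lungs, and its log2 response was 0.23 ± 0.43 in knockout lungs, a difference of -4.15 ± 0.61 (adjusted p = 0.00441). Here and below ± gives the SE of the fitted model (n = 3 per group), whose variance for each gene is pooled over all groups. The SD of Arg1 was 1.30 in wild type bleomycin, 0.10 in knockout saline and 0.16 in knockout bleomycin lungs. The SE of 0.43 therefore does not measure the spread of the knockout arrays alone. Retnla, the FIZZ1 gene of the same family as Retnlb, was already bright in saline lungs. Its values were 10.27, 10.13 and 10.29 in wild type saline lungs, 12.16, 12.31 and 12.24 in wild type bleomycin lungs, 10.12, 9.60 and 9.94 in knockout saline lungs and 8.91, 9.70 and 10.10 in knockout bleomycin lungs. Only the wild type bleomycin arrays stood apart, and the difference between responses was -2.33 ± 0.32 (adjusted p = 0.00298). Mrc1, the mannose receptor, was reduced: it rose 2.44-fold in wild type and 1.40-fold in knockout lungs (difference -0.80 ± 0.15, adjusted p = 0.0125).

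Of 26 measured genes of type 2 cytokines and alternative activation, 5 had a called difference below 0 and none above it (19.2%, against 5.02% of all genes), and the median difference was -0.33, against 0.04 over all genes. The count was 3 without wild type saline replicate 3 or knockout saline replicate 2. Of the 5, 3 were lost and 2 reduced. The chemokine genes Ccl17 and Ccl22, which such macrophages and dendritic cells secrete, were unresolved, at 1.37 and 0.67 in wild type and 0.51 in knockout lungs for both. Within the resistin family, Retnlb had responses of 0.29 ± 0.11 and -0.06 ± 0.11 and no called difference (adjusted p = 0.215), and Retn, the resistin gene of fat, had -0.97 and -1.16 (difference -0.19 ± 0.68, adjusted p = 0.902).

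The start region of Retnla is shown because it holds a match to the STAT6-type site, TTC and GAA with 4 bases of any kind between them, to which STAT6 is known to bind. The window is chr16:48842359-48842658 on the plus strand of GRCm38.p6, from RefSeq, with 250 bases before and 50 after the annotated start, and capitals mark the match, whose bases run from -145 to -136.
Retnla: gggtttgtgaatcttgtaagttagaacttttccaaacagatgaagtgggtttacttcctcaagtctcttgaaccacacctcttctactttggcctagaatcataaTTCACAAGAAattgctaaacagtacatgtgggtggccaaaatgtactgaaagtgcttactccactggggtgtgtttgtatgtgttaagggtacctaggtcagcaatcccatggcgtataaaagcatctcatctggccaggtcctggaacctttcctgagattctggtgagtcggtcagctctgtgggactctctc
On both strands, this motif occurred in 23.8% of 21 windows of the type 2 list, in 5.65% of 407 windows of genes that rose in wild type lungs and were lost, and in 5.87% of 18110 windows of all tested genes. It occurred in 8.57% of 35 windows of cell cycle genes and in 10.3% of 29 windows of ciliated cell genes. A match describes the letters only.

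Genes of macrophages and monocytes included kept, reduced and lost responses, and both kept genes, Mmp12 and Gpnmb, belong to the list of lipid-associated scar macrophages. Mmp12, the macrophage metalloelastase, had values of 4.92, 4.85 and 5.22 in wild type saline lungs, 9.77, 10.14 and 10.70 in wild type bleomycin lungs, 5.61, 4.86 and 5.15 in knockout saline lungs and 8.90, 9.84 and 9.29 in knockout bleomycin lungs. Both bleomycin groups lay far above both saline groups and overlapped each other. It rose 36.9-fold in wild type and 17.6-fold in knockout lungs, with a difference of -1.07 ± 0.37 (95% interval -1.87 to -0.27, adjusted p = 0.115). Gpnmb, a glycoprotein of lipid-laden macrophages, rose to 9.56, 9.58 and 9.98 in wild type lungs from 6.92, 6.75 and 6.94, and to 9.18, 9.59 and 9.60 in knockout lungs from 7.12, 7.23 and 7.19. Its bleomycin arrays overlapped between genotypes, and the difference was -0.56 ± 0.18 (95% interval -0.96 to -0.16, adjusted p = 0.099). For both genes the interval lay below 0, so kept means here that most of the response was present, at 79.5% of the wild type value for Mmp12 and 80.3% for Gpnmb on the log2 scale. With array weights both differences were called (adjusted p = 0.0311 and 0.0448), and both genes counted as reduced. Trem2, a lipid receptor of the same macrophages that was chosen after its values were seen, had responses of 2.57 and 2.06 and was unresolved (difference -0.51 ± 0.31, adjusted p = 0.365; 0.31 on its other probe set).

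Other genes of macrophages and monocytes had a called difference below 0. Cd68, a lysosomal glycoprotein of macrophages, had values of 7.79, 7.90 and 7.69 in wild type saline lungs, 9.96, 9.79 and 10.11 in wild type bleomycin lungs, 8.20, 8.30 and 8.26 in knockout saline lungs and 9.24, 9.33 and 9.62 in knockout bleomycin lungs. None of the 4 groups overlapped, with the knockout bleomycin arrays between saline and wild type bleomycin, and the response was reduced from 2.16 to 1.14 (difference -1.02 ± 0.15, adjusted p = 0.0048). The scavenger receptor gene Msr1 was reduced from 2.92 to 1.26 (difference -1.66 ± 0.33, adjusted p = 0.0157; -1.08 for the mean of its 4 probe sets) and Clec4n, which encodes the lectin dectin-2, from 3.36 to 1.98 (difference -1.39 ± 0.28, adjusted p = 0.0156). Ccr1, a chemokine receptor of monocytes, rose 5.04-fold in wild type lungs and had a response of 0.27 ± 0.20 in the knockout (difference -2.06 ± 0.28, adjusted p = 0.00298). Plac8, a gene of classical monocytes, rose 1.79-fold in wild type lungs and had -0.46 ± 0.14 in the knockout (difference -1.30 ± 0.20, adjusted p = 0.00545).

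Pla2g7, the lipoprotein-associated phospholipase of macrophages, differed in its starting level. Its values were 6.37, 5.92 and 6.35 in wild type saline lungs, 8.0, 7.83 and 8.08 in wild type bleomycin lungs, 7.54, 7.19 and 7.44 in knockout saline lungs and 7.50, 7.48 and 7.61 in knockout bleomycin lungs. The knockout saline arrays already lay above those of wild type, by 1.18 ± 0.13 (adjusted p = 0.000991), and the knockout bleomycin arrays overlapped them. Its response was lost, with a difference of -1.62 ± 0.18 (adjusted p = 0.0013).

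As a list, 14 of 27 macrophage and monocyte markers (51.9%, against 5.02% of all genes) had a called difference, each below 0. The median difference was -0.84. Of these, 8 were lost, 5 reduced and 1 turned. The count was 8 without wild type saline replicate 1 or knockout saline replicate 2, and 9 without knockout saline replicate 1 or knockout bleomycin replicate 1. The mean level of the 27 markers lay between 7.90 and 8.07 in wild type saline, 8.95 and 9.20 in wild type bleomycin, 8.19 and 8.27 in knockout saline and 8.42 and 8.72 in knockout bleomycin lungs. In RNA of lung tissue, fewer cells of a type and less RNA per cell cannot be told apart. Of 20 genes of lipid-associated scar macrophages, 17 were called higher in wild type (13.3% of all genes) and 13 in knockout lungs (1.98% of all genes). The median response was 1.10 and 0.63, with 2 genes kept and 12 unresolved. A called difference was found for 3 (15%, against 5.02% of all genes). That count was 1 without wild type saline replicate 1, knockout saline replicate 1 or 2 or knockout bleomycin replicate 1. It was 6 without wild type saline replicate 2, 12 with array weights, 5 with trend and robust fitting and 1 with the replicate block.

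Collagen chains ranged from a kept to a lost response. Col3a1, a fibrillar chain, had values of 12.33, 12.30 and 12.36 in wild type saline lungs, 13.56, 13.36 and 13.33 in wild type bleomycin lungs, 11.85, 11.85 and 11.64 in knockout saline lungs and 12.73, 12.97 and 13.06 in knockout bleomycin lungs. Neither pair of groups overlapped, and both saline and bleomycin arrays were lower in the knockout, by 0.55 (adjusted p = 0.0303) and 0.49 (adjusted p = 0.00511). The step with bleomycin was 1.09 ± 0.10 in wild type and 1.14 ± 0.10 in knockout lungs, and the 95% interval of the difference ran from -0.25 to 0.36. Col3a1 was kept under each of the 19 alternative settings, while its other probe set gave a difference of -0.57 and the mean of both -0.26. Col8a1, a short chain of vessel and scar matrix, had values of 7.13, 7.32 and 6.88 in wild type saline lungs, 9.98, 9.33 and 9.0 in wild type bleomycin lungs, 7.23, 7.40 and 7.31 in knockout saline lungs and 7.01, 7.60 and 7.23 in knockout bleomycin lungs. Only the wild type bleomycin arrays stood above the rest, and the response was lost (difference -2.36 ± 0.30, adjusted p = 0.00225). Col5a3, a minor fibrillar chain, was lost with a difference of -2.13 ± 0.41 (adjusted p = 0.0135), while its other probe set gave 0.02 and the mean of both -1.05.

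Col1a1, the main chain of scar collagen and a gene chosen after its values were seen, was in between. Its values were 9.36, 9.48 and 9.45 in wild type saline lungs, 12.46, 11.44 and 11.73 in wild type bleomycin lungs, 9.04, 9.08 and 8.95 in knockout saline lungs and 10.01, 10.23 and 10.35 in knockout bleomycin lungs. It rose 5.45-fold and 2.25-fold without overlap between the bleomycin groups, and the difference was -1.27 ± 0.27 (adjusted p = 0.0205). This call was lost without knockout saline replicate 1 or 2 (adjusted p = 0.0517 for each), without knockout bleomycin replicate 1 (0.0592) and as the mean of its probe sets (0.0734). Of 30 collagen chains, 7 had a called difference (23.3%, against 5.02% of all genes), each below 0, of which 5 were lost and 2 reduced. The count was 3 without knockout saline replicate 1, 4 without knockout saline replicate 2 and 2 without knockout bleomycin replicate 1. With array weights it was 11. The median collagen response was 0.97 in wild type and 0.38 in knockout lungs, and the median difference -0.38.

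Of 39 matrix glycoproteins and proteoglycans, 16 had a called difference (41%, against 5.02% of all genes), 14 of them below 0. The median difference was -0.56. Of the 16, 10 were lost and 4 reduced. The count was 10 without knockout saline replicate 1 and 9 without knockout bleomycin replicate 1. Tnc, the matricellular tenascin C, had values of 7.05, 6.85 and 6.65 in wild type saline lungs, 11.34, 10.59 and 10.75 in wild type bleomycin lungs, 6.62, 6.81 and 6.96 in knockout saline lungs and 8.05, 9.09 and 9.23 in knockout bleomycin lungs. The knockout bleomycin arrays lay above both saline groups and below all wild type bleomycin arrays. Tnc rose 16.5-fold in wild type and 3.99-fold in knockout lungs (difference -2.05 ± 0.37, adjusted p = 0.00982). Eln, which encodes elastin, had values of 8.78, 9.30 and 9.37 in wild type saline lungs, 12.60, 12.40 and 12.36 in wild type bleomycin lungs, 8.91, 9.16 and 9.13 in knockout saline lungs and 10.60, 11.40 and 11.22 in knockout bleomycin lungs. Again the knockout bleomycin arrays lay between, and the response was reduced from 3.31 to 2.01 (difference -1.30 ± 0.27, adjusted p = 0.0178).

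Fibronectin, Fn1, an early scaffold of scar matrix, was reduced from a 4.37-fold to a 1.71-fold rise (difference -1.35 ± 0.18, adjusted p = 0.00298). The thrombospondins Thbs2 and Thbs4 and the secreted Cthrc1, a protein of collagen-producing fibroblasts, were lost, with differences of -1.88 ± 0.31, -2.65 ± 0.37 and -2.22 ± 0.38 (adjusted p = 0.00669, 0.0032 and 0.00716). Lama1, a laminin chain of basement membranes, was reduced from 3.06 to 0.70 (difference -2.35 ± 0.25, adjusted p = 0.000953). In contrast, Sparc, a collagen-binding glycoprotein, was kept at 0.63 ± 0.08 and 0.59 ± 0.08 (95% interval of the difference -0.29 to 0.20), and it was kept in 8 of the 19 alternative settings and unresolved in the other 11.

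Of 17 genes of collagen processing and crosslinking, 4 had a called difference (23.5%, against 5.02% of all genes), each a lost response. Lox, the crosslinking lysyl oxidase, rose 4.66-fold in wild type lungs and had 0.77 ± 0.21 in the knockout (difference -1.45 ± 0.30, adjusted p = 0.0181). P4ha3, a subunit of prolyl hydroxylase, was lost at -1.04 ± 0.17 (adjusted p = 0.00698), with a mean in the lower quartile of probe sets in both saline groups and in knockout bleomycin lungs. Pcolce2, an enhancer of procollagen cleavage, fell in wild type lungs, by 1.91 on the log2 scale. Its values were 11.62, 11.67 and 11.64 in wild type saline lungs, 9.32, 10.05 and 9.84 in wild type bleomycin lungs, 11.52, 11.58 and 11.78 in knockout saline lungs and 11.68, 11.13 and 11.35 in knockout bleomycin lungs. Only the wild type bleomycin arrays were low, and the difference was 1.66 ± 0.24 (adjusted p = 0.00398). The collagen chaperone Serpinh1 was unresolved, with 0.66 in wild type and 0.77 in knockout lungs.

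Timp1, the secreted inhibitor of metalloproteinases, was reduced. Its values were 6.82, 7.30 and 6.89 in wild type saline lungs, 11.81, 10.39 and 10.84 in wild type bleomycin lungs, 6.61, 6.52 and 6.68 in knockout saline lungs and 7.34, 8.07 and 8.36 in knockout bleomycin lungs. The knockout bleomycin arrays lay above every saline array and below every wild type bleomycin array. Timp1 rose 16.1-fold and 2.50-fold (difference -2.69 ± 0.44, adjusted p = 0.0066). The protease Adamts12 was reduced from 3.20 to 1.05 (difference -2.16 ± 0.30, adjusted p = 0.00337; 0.11 on its other probe set and -1.02 for the mean of both). The collagenases Mmp8 and Mmp13 were lost, with differences of -1.54 ± 0.18 and -1.89 ± 0.29 (adjusted p = 0.0018 and 0.0048). The mean of Mmp13 lay in the lower quartile of probe sets in both saline groups. Mmp2, a gelatinase of fibroblasts, was unresolved, with 1.21 and 1.55. Of 27 matrix proteases and inhibitors, 10 had a called difference (37%, against 5.02% of all genes), each below 0. The median difference was -0.47. Without wild type saline replicate 1 or any of the 3 knockout saline replicates 6 were called, and without knockout bleomycin replicate 1, 5.

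Growth factor genes were mostly lost where they were called. Fst, which encodes the activin-binding follistatin, had values of 5.70, 6.17 and 6.24 in wild type saline lungs, 9.47, 8.25 and 8.45 in wild type bleomycin lungs, 6.02, 6.35 and 6.29 in knockout saline lungs and 6.01, 5.76 and 6.11 in knockout bleomycin lungs. The knockout bleomycin arrays lay within the range of the saline arrays. Fst rose 6.45-fold in wild type lungs and had -0.26 ± 0.25 in the knockout (difference -2.94 ± 0.36, adjusted p = 0.00207). Ereg, which encodes the EGF receptor ligand epiregulin, and Pdgfc, a platelet-derived growth factor, had differences of -2.51 ± 0.32 and -1.74 ± 0.30 (adjusted p = 0.00246 and 0.00817). The mean of Ereg lay in the lower quartile of probe sets in both saline groups. Bambi, a decoy receptor for TGF-beta, fell by 1.13 on the log2 scale in wild type lungs and had 0.02 ± 0.12 in the knockout (difference 1.16 ± 0.17, adjusted p = 0.00388). Igf1, a growth factor made by lung macrophages and fibroblasts, was unresolved, at 2.66 and 1.39 (adjusted p = 0.0515). Of 37 genes of the TGF-beta, activin, IGF and PDGF systems, 9 had a called difference (24.3%, against 5.02% of all genes), 6 below and 3 above 0. Of these, 8 were lost and 1 reduced, and the count was 5 without knockout saline replicate 1 and 17 with array weights. The Wnt antagonists Frzb and Dkk2 had differences of -2.60 ± 0.32 and -2.42 ± 0.33 (adjusted p = 0.00212 and 0.0032). Frzb was dim in wild type saline lungs and Dkk2 in both saline groups.

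Among 18 contractile genes of myofibroblasts and smooth muscle, 16 differences were below 0 with a median of -0.45, and 1, that of the tropomyosin gene Tpm1, was called (5.56%, against 5.02% of all genes). No contractile gene was called without wild type saline replicate 1 or 2, wild type bleomycin replicate 1, any knockout saline replicate or knockout bleomycin replicate 1 or 2, and 2 were called without wild type bleomycin replicate 3. The median response of the list was 0.08 in wild type and -0.40 in knockout lungs. In wild type lungs 2 responses were called higher and 1 lower (13.3% and 14.4% of all genes). In knockout lungs none was called higher and 4 lower (1.98% and 1.29% of all genes). Acta2, the smooth muscle actin gene, had responses of 0.30 ± 0.19 and -0.62 ± 0.19 (difference -0.92 ± 0.26, adjusted p = 0.0632).

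Cell cycle genes held the highest share of called differences of the 44 lists. Of 39 measured genes, 29 had a called difference (74.4%, against 5.02% of all genes), each below 0. Of the 39, 13 were reduced, 16 lost, 9 unresolved and none kept. All 39 were called higher in wild type lungs (13.3% of all genes) and 17 in knockout lungs (1.98% of all genes). The median response was 1.78 and 0.51, and the median difference -1.18. The count of called differences was 19 without knockout saline replicate 1. Kif20a, a kinesin of cytokinesis, had values of 3.88, 3.74 and 3.94 in wild type saline lungs, 6.00, 5.75 and 6.28 in wild type bleomycin lungs, 3.58, 3.68 and 3.62 in knockout saline lungs and 4.18, 4.44 and 4.25 in knockout bleomycin lungs. Its knockout bleomycin arrays lay above all saline arrays and below all wild type bleomycin arrays. Kif20a was reduced from 2.16 to 0.66 (difference -1.50 ± 0.17, adjusted p = 0.0013), with its knockout saline mean in the lower quartile of probe sets.

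Plk1, the mitotic polo-like kinase, was lost. Its values were 4.94, 5.24 and 5.01 in wild type saline lungs, 7.07, 6.51 and 6.77 in wild type bleomycin lungs, 4.94, 4.86 and 5.01 in knockout saline lungs and 5.11, 5.25 and 5.20 in knockout bleomycin lungs. Knockout bleomycin arrays lay slightly above their own saline controls, without overlap, and overlapped the wild type saline arrays. The knockout response was not called, and the difference was -1.47 ± 0.18 (adjusted p = 0.00205). The checkpoint kinase Bub1 and the replication licensing factor Cdc6 were lost too, with differences of -1.40 ± 0.17 and -1.10 ± 0.15 (adjusted p = 0.00212 and 0.00298), and the mean of the Bub1 probe sets gave -0.81. Ccnb2 and Cdk1 were chosen after their values were seen. Ccnb2, a mitotic cyclin, was reduced from 2.28 to 0.85 (difference -1.44 ± 0.24, adjusted p = 0.00669), and Cdk1, the kinase that mitotic cyclins bind, from 2.69 to 1.42 (difference -1.26 ± 0.26, adjusted p = 0.0172, or 0.0504 without knockout saline replicate 1). Top2a, a topoisomerase of dividing cells, was unresolved, at 2.40 and 1.35, and its probe sets gave differences from -1.05 to 0.23.

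The start regions of Ccnb2 and Plk1 are shown because cell cycle promoters are known for CCAAT boxes and for the cell cycle homology region TTTGAA, and both of these genes responded far less in the knockout. The windows are chr9:70421505-70421804 on the minus strand and chr7:122159185-122159484 on the plus strand of GRCm38.p6, from RefSeq, written on the gene's strand, and capitals mark the 2 motifs.
Ccnb2: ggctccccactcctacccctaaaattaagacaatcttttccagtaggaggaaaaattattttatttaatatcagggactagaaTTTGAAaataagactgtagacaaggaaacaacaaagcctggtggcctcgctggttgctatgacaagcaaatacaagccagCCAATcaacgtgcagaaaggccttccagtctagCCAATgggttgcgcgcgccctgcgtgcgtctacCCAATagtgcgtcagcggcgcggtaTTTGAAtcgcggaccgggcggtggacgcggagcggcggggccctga
Plk1: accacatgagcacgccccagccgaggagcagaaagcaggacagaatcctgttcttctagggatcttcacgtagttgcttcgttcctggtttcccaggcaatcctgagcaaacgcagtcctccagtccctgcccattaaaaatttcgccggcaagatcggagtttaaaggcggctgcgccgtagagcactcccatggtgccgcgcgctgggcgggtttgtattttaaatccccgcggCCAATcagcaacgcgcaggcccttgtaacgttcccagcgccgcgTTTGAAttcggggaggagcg
In Ccnb2 the CCAAT boxes begin at -87, -54 and -21 from the start and TTTGAA at -167 and 5, and in Plk1 CCAAT begins at -14 and TTTGAA at 31. Searched on both strands, TTTGAA occurred in 45.7% of 35 windows of the 32 cell cycle genes with a window, in 16.2% of 407 windows of genes that rose in wild type lungs and were lost, and in 13.4% of 18110 windows of all tested genes. CCAAT occurred in 80%, 36.6% and 37.4% of the same windows. In 21 windows of the type 2 list the shares were 33.3% for TTTGAA and 47.6% for CCAAT. In 29 windows of ciliated cell genes they were 13.8% and 31%. The shares describe the lists and were not tested.

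Saa3, an acute-phase serum amyloid gene of macrophages and epithelium, had values of 6.53, 7.05 and 6.90 in wild type saline lungs, 13.03, 11.47 and 10.91 in wild type bleomycin lungs, 6.42, 6.89 and 6.89 in knockout saline lungs and 6.88, 7.58 and 8.83 in knockout bleomycin lungs. Knockout bleomycin arrays ranged from the saline level to 8.83, all below the wild type bleomycin arrays. The difference was -3.94 ± 0.70 (adjusted p = 0.00884). Lif, a cytokine of the interleukin-6 family, and Socs3, the feedback inhibitor induced by that family, were lost with differences of -1.25 ± 0.18 and -1.62 ± 0.27 (adjusted p = 0.00398 and 0.00698), with 0.21 on the other probe set of Lif and -0.52 for the mean of both. The interleukin-1 receptor gene Il1r1 and the protease inhibitor gene Serpina3n had -0.82 ± 0.13 and -1.61 ± 0.28 (adjusted p = 0.00669 and 0.00825), with 0.02 on the other probe set of Il1r1 and -0.40 for the mean of both. Lcn2, an iron-binding acute-phase gene, was unresolved, at 1.35 and 1.05. Of 28 acute-phase and interleukin-6 family genes, 10 had a called difference (35.7%, against 5.02% of all genes), each below 0, 8 lost and 2 reduced. The median difference of the list was -0.42.

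Of 28 chemokine genes, 6 had a called difference (21.4%, against 5.02% of all genes), each below 0. The median difference was -0.38. Ccl9, a monocyte chemokine, was reduced from 2.66 to 0.95 (difference -1.71 ± 0.23, adjusted p = 0.00298). The monocyte attractants Ccl2 and Ccl12 were lost, with 2.20 and 2.76 in wild type lungs, 0.25 and 0.79 in knockout lungs and differences of -1.95 ± 0.35 and -1.97 ± 0.32 (adjusted p = 0.0097 and 0.00669). Ccl2 had values of 3.89, 3.92 and 3.83 in wild type saline lungs, 6.81, 5.41 and 6.03 in wild type bleomycin lungs, 3.76, 3.83 and 3.90 in knockout saline lungs and 3.95, 3.91 and 4.37 in knockout bleomycin lungs. The wild type bleomycin arrays lay above the other 9, and of the knockout bleomycin arrays replicate 3 was the highest.

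Among 21 genes of prostaglandin, leukotriene and other lipid mediators, 7 had a called difference (33.3%, against 5.02% of all genes), each below 0. The count was 4 without knockout saline replicate 1. Pla1a, a phospholipase that makes lysophosphatidylserine, rose 10.4-fold in wild type lungs and had 0.45 ± 0.20 in the knockout (difference -2.93 ± 0.28, adjusted p = 0.000466). Ptger3, a prostaglandin E2 receptor, and Hpgds, a prostaglandin D2 synthase, were lost at -2.13 ± 0.38 and -0.60 ± 0.12 (adjusted p = 0.00884 and 0.0149), with 0.03 on the other probe set of Ptger3 and -1.05 for the mean of both. Of 18 complement genes, 10 were unresolved (22.9% of all genes) and 2 had a called difference (11.1%, against 5.02% of all genes). The count was 1 without wild type saline replicate 1, wild type bleomycin replicate 1 or knockout saline replicate 1 or 2, and 8 without knockout bleomycin replicate 3. C1qa, a chain of the recognition protein C1q, was unresolved at 2.49 and 1.49 (adjusted p = 0.0637) and the leukocyte integrin chain Itgb2 reduced from 1.35 to 0.48 (difference -0.87 ± 0.13, adjusted p = 0.00537).

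**Figure D2:**
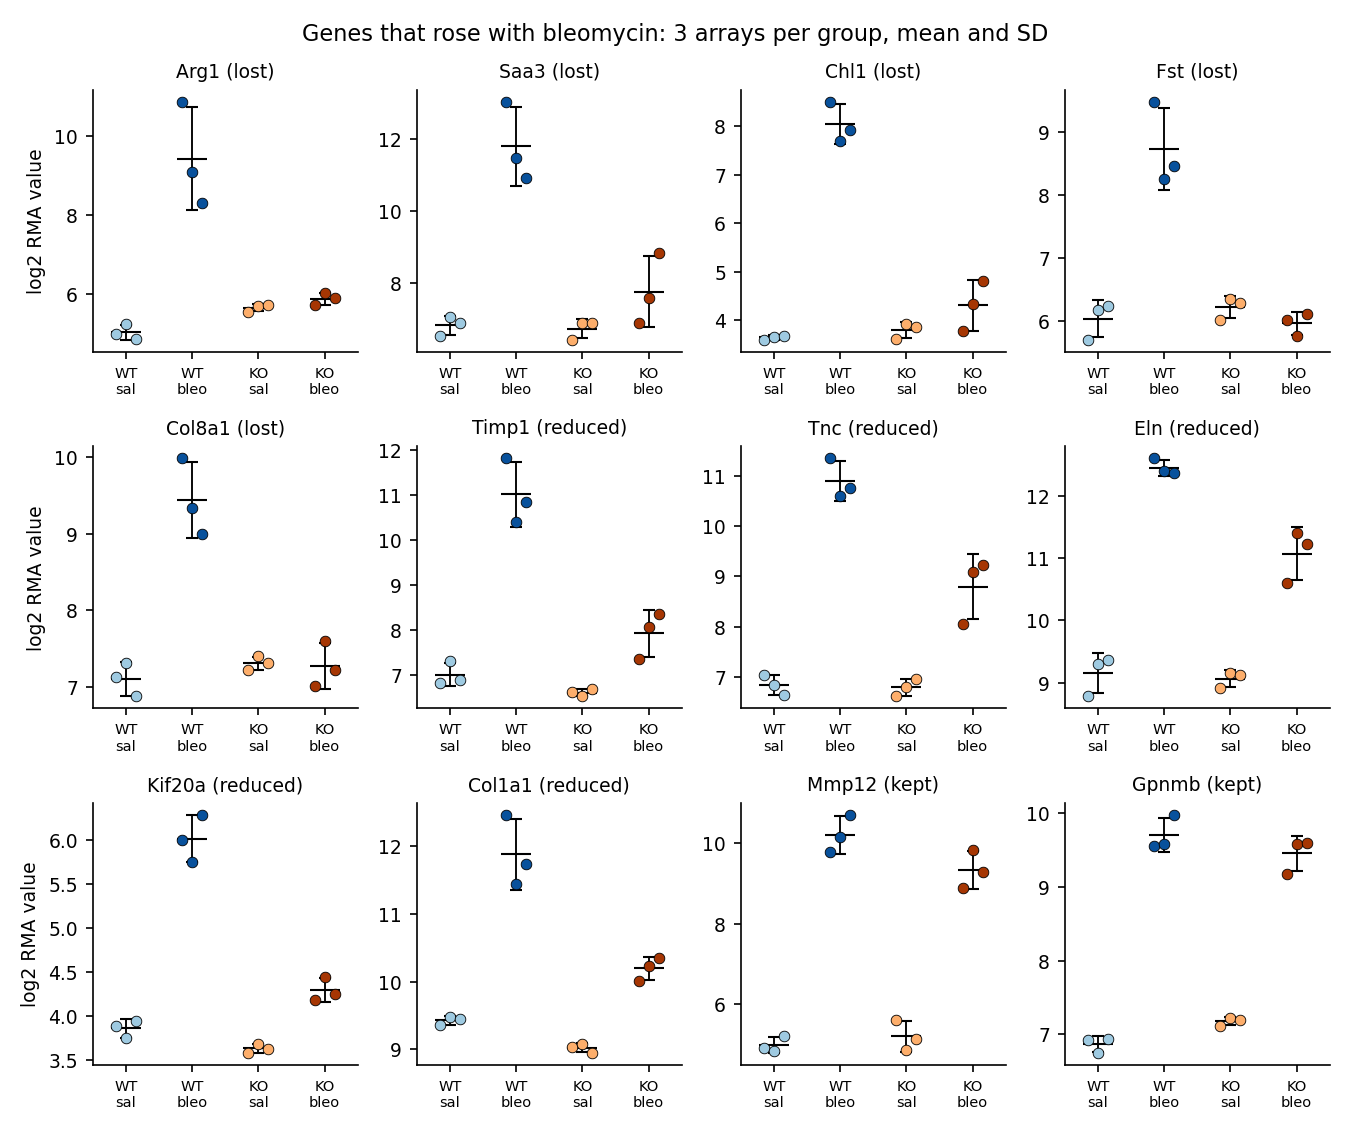
Log2 values of 12 genes that rose with bleomycin in wild type lungs, with 3 arrays per group as points and the group mean and SD as bars (WT wild type, KO FIZZ2 knockout, sal saline, bleo bleomycin; each panel has its own axis). In the lost genes Arg1, Fst and Col8a1, knockout bleomycin arrays lie at or near the saline level. In the lost genes Saa3 and Chl1 they range from the saline level upward, below all wild type bleomycin arrays. In the reduced genes, such as Tnc and Eln, they lie between, and in Mmp12 and Gpnmb they overlap the wild type bleomycin arrays.

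Among 30 interferon-stimulated genes 1 difference was called (3.33%, against 5.02% of all genes; median -0.09), and none without wild type saline replicate 1 or 3, any knockout saline replicate or knockout bleomycin replicate 1 or 2. There were 2 among 23 p53 targets and senescence genes (8.7%; median -0.19), and 1 without replicate 1 of any of the 4 groups or replicate 3 of either saline group. Among 22 genes of antigen presentation there was none (median 0.04). Lists of this length would hold few calls at the 5.02% of all genes, so such counts are no sign of equal responses. Cdkn1a, the p21 gene induced by p53, was unresolved, at 1.93 and 1.25 (adjusted p = 0.134). Eda2r, a p53-induced receptor, was reduced from 1.76 to 0.74 (difference -1.02 ± 0.20, adjusted p = 0.0155).

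The falls of 330 genes were lost. Fabp1, a fatty acid binding protein, had values of 6.87, 7.40 and 7.12 in wild type saline lungs, 3.69, 4.23 and 3.97 in wild type bleomycin lungs, 6.50, 6.74 and 6.67 in knockout saline lungs and 6.86, 5.28 and 5.61 in knockout bleomycin lungs. Knockout bleomycin replicate 1 lay above its saline controls and the other 2 arrays below them, and all 3 lay above the wild type bleomycin arrays. The difference was 2.44 ± 0.43 (adjusted p = 0.00843). Acoxl, a gene related to peroxisomal acyl-CoA oxidases, had values of 9.51, 9.88 and 9.42 in wild type saline lungs, 6.11, 7.49 and 7.34 in wild type bleomycin lungs, 9.58, 9.35 and 9.67 in knockout saline lungs and 9.84, 9.43 and 9.05 in knockout bleomycin lungs. In Acoxl only the wild type bleomycin arrays were low, and the difference was 2.53 ± 0.42 (adjusted p = 0.00692). Other lost falls with large differences were those of Slc7a10, an amino acid transporter (2.26 ± 0.37, adjusted p = 0.00669), Gsta2, a glutathione transferase (1.75 ± 0.30, adjusted p = 0.00746), and Dpep1, a membrane dipeptidase (1.63 ± 0.22, adjusted p = 0.00298).

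Tppp3, a tubulin-binding gene of ciliated cells, had values of 11.66, 11.60 and 11.55 in wild type saline lungs, 9.96, 10.29 and 10.48 in wild type bleomycin lungs, 11.59, 11.73 and 11.73 in knockout saline lungs and 11.57, 11.20 and 11.54 in knockout bleomycin lungs. The wild type bleomycin arrays lay below the other 9, and the difference was 1.12 ± 0.18 (adjusted p = 0.00659). Of 29 ciliated cell genes, 22 were called lower in wild type (14.4% of all genes) and none in knockout lungs (1.29% of all genes). Of their differences, 28 of 29 were above 0 with a median of 0.51, and 5 were called (17.2%, against 5.02% of all genes). That count was 1 without wild type saline replicate 1 or 3 or knockout saline replicate 1 or 3. It was 2 without wild type bleomycin replicate 1 or knockout bleomycin replicate 1 or 3. It was 10 without wild type bleomycin replicate 3, 16 with array weights and 3 with the replicate block. Cyp4b1, a cytochrome of club cells, fell by 1.64 on the log2 scale in wild type lungs and had -0.44 ± 0.17 in the knockout (difference 1.20 ± 0.24, adjusted p = 0.0154). Of 25 club and airway secretory genes 4 were called (16%, against 5.02% of all genes), each above 0, with a median of 0.52. The club cell count was 1 without wild type saline replicate 1 or 3 or knockout saline replicate 1 or 3, and 2 without knockout saline replicate 2 or knockout bleomycin replicate 1.

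Alveolar type 2 genes had medians of -0.37 in wild type and 0.23 in knockout lungs, and a median difference of 0.55. Of 22 differences, 5 were called (22.7%, against 5.02% of all genes), each above 0. None was called without knockout saline replicate 1 or knockout bleomycin replicate 1, 1 without wild type saline replicate 1 or 2 or knockout saline replicate 2, 2 without knockout saline replicate 3 or knockout bleomycin replicate 2 or 3, 3 without wild type saline replicate 3 and 8 without wild type bleomycin replicate 2. The tight-junction gene Cldn4, a marker of injured alveolar epithelium, went the other way: it rose 3.47-fold in wild type lungs and had 0.38 ± 0.20 in the knockout (difference -1.42 ± 0.28, adjusted p = 0.0135). Of 19 alveolar type 1 genes none had a called difference, with a median of 0.20. At the share of all genes, 5.02%, a list of this length would hold few calls, so none is no sign of equal responses.

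Gzma, a granzyme of natural killer cells, had values of 9.99, 10.52 and 9.81 in wild type saline lungs, 7.31, 8.05 and 8.11 in wild type bleomycin lungs, 10.22, 10.21 and 10.22 in knockout saline lungs and 10.02, 9.62 and 9.33 in knockout bleomycin lungs. Wild type bleomycin arrays were lowest, the knockout bleomycin arrays lay below their own saline controls, and the response was lost (difference 1.72 ± 0.32, adjusted p = 0.0104). Nkg7, a gene of cytotoxic granules, was lost too (difference 1.15 ± 0.23, adjusted p = 0.0158). Of 20 natural killer and cytotoxic genes, 17 were called lower in wild type (14.4% of all genes) and 1 in knockout lungs (1.29% of all genes). In this list 2 had a called difference (10%, against 5.02% of all genes), or 4 without wild type bleomycin replicate 3. Among 15 B cell genes 9 were called lower in wild type (14.4% of all genes) and none in knockout lungs (1.29% of all genes). None had a called difference, and the median difference was 0.47. At 5.02% of all genes, a list of this length would hold few calls, so none is no sign of equal responses. There was 1 B cell call without wild type saline replicate 2 or knockout saline replicate 1, and 3 without wild type bleomycin replicate 3. The median difference over 37 vascular endothelial genes was 0.15. Of these genes, 5 had a called difference (13.5%, against 5.02% of all genes), 4 above and 1 below 0. That count was 2 without wild type saline replicate 1, knockout saline replicate 2 or knockout bleomycin replicate 1, 3 without wild type saline replicate 2 or 3 or knockout bleomycin replicate 2, 1 without knockout saline replicate 1 or 3, and 9 without knockout bleomycin replicate 3. The fall of Bmp6, a growth factor of lung endothelium, was lost (difference 0.90 ± 0.17, adjusted p = 0.0122), and so was the rise of Selp, the leukocyte adhesion molecule P-selectin (difference -1.80 ± 0.43, adjusted p = 0.0329). The Selp call did not hold without any 1 of the 6 saline arrays or without knockout bleomycin replicate 1 or 2 (adjusted p between 0.0506 and 0.0815).

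Markers of tissue that can be cut out with the lung were examined as lists. Of 13 genes of heart or pulmonary vein muscle, 12 were called lower in wild type and 1 in knockout lungs, against 14.4% and 1.29% of all genes. The median responses of these 13 were -1.79 and -1.24, and none had a called difference (median 0.54). Their mean level lay between 8.49 and 9.06 in wild type saline, 6.84 and 7.40 in wild type bleomycin, 8.54 and 9.20 in knockout saline and 6.68 and 8.79 in knockout bleomycin lungs. Of 10 fat genes 2 were called lower in each genotype and none had a called difference (median -0.38), with mean levels between 6.28 and 7.07, 6.00 and 6.14, 6.78 and 8.08, and 5.75 and 7.07 in the same order of groups. Skeletal muscle (12 genes, mean levels between 4.07 and 4.27 over all groups) and mesothelium (8 genes) had no called difference. With 5.02% of all genes called, lists this short would hold few calls. The part of these tissues in the lost falls was not tested.

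**Figure D3:**
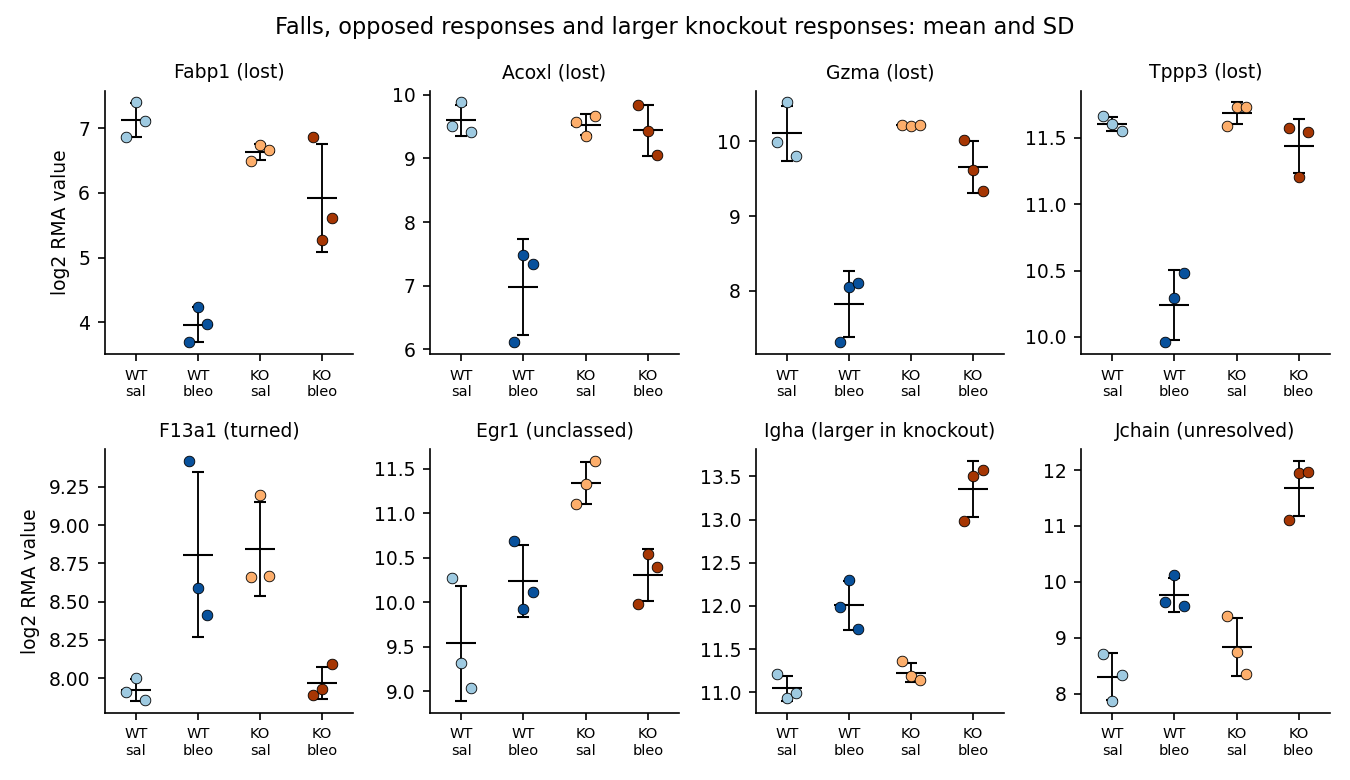
Log2 values of 8 genes, with 3 arrays per group as points and the group mean and SD as bars (WT wild type, KO FIZZ2 knockout, sal saline, bleo bleomycin; each panel has its own axis). In the upper row the wild type bleomycin arrays alone are low in Acoxl and Tppp3, and in the lower row F13a1 and Egr1 move in opposite directions in the genotypes while Igha is highest in knockout bleomycin lungs.

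F13a1, the coagulation factor XIII A chain made by monocytes and macrophages, was the 1 gene called in opposite directions (0.0055%). Its values were 7.91, 8.0 and 7.86 in wild type saline lungs, 9.42, 8.59 and 8.41 in wild type bleomycin lungs, 8.66, 9.20 and 8.67 in knockout saline lungs and 7.89, 7.93 and 8.09 in knockout bleomycin lungs. Saline and bleomycin arrays did not overlap in either genotype. It rose by 0.88 ± 0.21 on the log2 scale in wild type lungs (adjusted p = 0.00741) and fell by 0.88 in knockout lungs (adjusted p = 0.043), a difference of -1.76 ± 0.30 (adjusted p = 0.00747). Its saline difference of 0.92 was not called (adjusted p = 0.105), and its bleomycin difference of -0.84 was (adjusted p = 0.0177). Among the 764 lost genes, 252 (33%) had a knockout estimate of opposite sign to the wild type response, none of them called.

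Immediate early genes also differed in the saline lungs. Junb, an AP-1 subunit, was lost, with 1.13 in wild type and -0.24 ± 0.16 in knockout lungs (difference -1.37 ± 0.23, adjusted p = 0.00698), and Myc, the growth-promoting transcription factor, with 1.37 and 0.26 (difference -1.10 ± 0.17, adjusted p = 0.0048). Egr1, a zinc finger factor induced by stress and growth signals, had 10.27, 9.32 and 9.03 in wild type saline lungs, 10.69, 9.92 and 10.11 in wild type bleomycin lungs, 11.11, 11.33 and 11.59 in knockout saline lungs and 9.98, 10.54 and 10.40 in knockout bleomycin lungs. Knockout saline arrays were the highest, by 1.81 ± 0.28 over wild type (adjusted p = 0.0128), and neither response was called, though the difference was (-1.74 ± 0.40, adjusted p = 0.0286). The Egr1 call did not hold when wild type saline replicate 2 (adjusted p = 0.0573) or 3 (0.0535), wild type bleomycin replicate 1 (0.055), knockout saline replicate 2 (0.0604) or 3 (0.0659) or knockout bleomycin replicate 1 (0.076) was left out, or with array weights (0.0994) or trend and robust fitting (0.0566). Of 24 immediate early and stress genes 7 had a called difference (29.2%, against 5.02% of all genes). In this list 6 were called higher after saline in the knockout (0.297% of all genes). The count of 7 was 3 without wild type bleomycin replicate 3 or knockout saline replicate 1 or 3, and 2 without wild type saline replicate 2 or 3, wild type bleomycin replicate 1, knockout saline replicate 2 or knockout bleomycin replicate 1.

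Igha, the constant region of IgA made by plasma cells, had values of 11.21, 10.94 and 10.99 in wild type saline lungs, 11.99, 12.30 and 11.73 in wild type bleomycin lungs, 11.36, 11.19 and 11.14 in knockout saline lungs and 12.98, 13.51 and 13.57 in knockout bleomycin lungs. Both bleomycin groups lay above their controls and did not overlap each other, and Igha rose 1.94-fold in wild type and 4.35-fold in knockout lungs (difference 1.16 ± 0.23, adjusted p = 0.0152). It was the 1 gene with a called response in wild type lungs that was larger in the knockout (0.0055%). Jchain, which joins IgA and IgM chains, rose by 1.47 and 2.85 with a difference that missed the threshold (1.38 ± 0.41, 95% interval 0.49 to 2.27, adjusted p = 0.071), and Ighm, the IgM constant region, which was chosen after its values were seen, had 0.66 and 1.70 (difference 1.05 ± 0.46, adjusted p = 0.206; 0.60 for the mean of its 11 probe sets). Of 13 plasma cell genes 2 had a called difference (15.4%, against 5.02% of all genes), both above 0, with a median of 0.39. The count was 1 without any of the wild type saline replicates, knockout saline replicate 2 or 3 or knockout bleomycin replicate 2 or 3, and 4 without knockout saline replicate 1. A response called in the knockout alone, with a called difference, was found for 17 genes (0.0934%), 13 of them with responses of opposite sign. In a further 28 genes (0.154%) the difference was called and neither response was, and all 28 had responses of opposite sign.

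Most of the 914 genes had a called genotype difference after bleomycin and no called one after saline. A genotype difference was called after bleomycin alone for 781, after saline alone for 21, after both for 7 and after neither for 105, against 2804 genes of all (15.4%) called after bleomycin, 1369 of them higher (7.52%) and 1435 lower (7.89%) in the knockout, and 89 (0.489%) after saline. Without any 1 of the 6 saline arrays the saline count fell to between 24 and 58, and the bleomycin count was 1863 without wild type bleomycin replicate 1 and 1653 without knockout bleomycin replicate 1. The median absolute difference between genotypes was 0.67 after bleomycin and 0.16 after saline over the 914 genes, and 0.13 and 0.09 over all genes. For 630 of the 914 the saline difference had the opposite sign to the bleomycin difference. These genes were chosen by the difference between their bleomycin and saline values, so these shares only describe them. Among the exceptions, Pla2g7 and Mmp8 were higher in knockout saline lungs, by 1.18 ± 0.13 and 0.75 ± 0.13 (adjusted p = 0.000991 and 0.0208). Ifitm6, a kept fall of 2.30-fold in wild type and 2.48-fold in knockout lungs, is not among the 914. It was higher in the knockout after saline and after bleomycin, by 1.15 ± 0.16 and 1.04 ± 0.16 (adjusted p = 0.00733 and 0.00112).

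**Figure D4:**
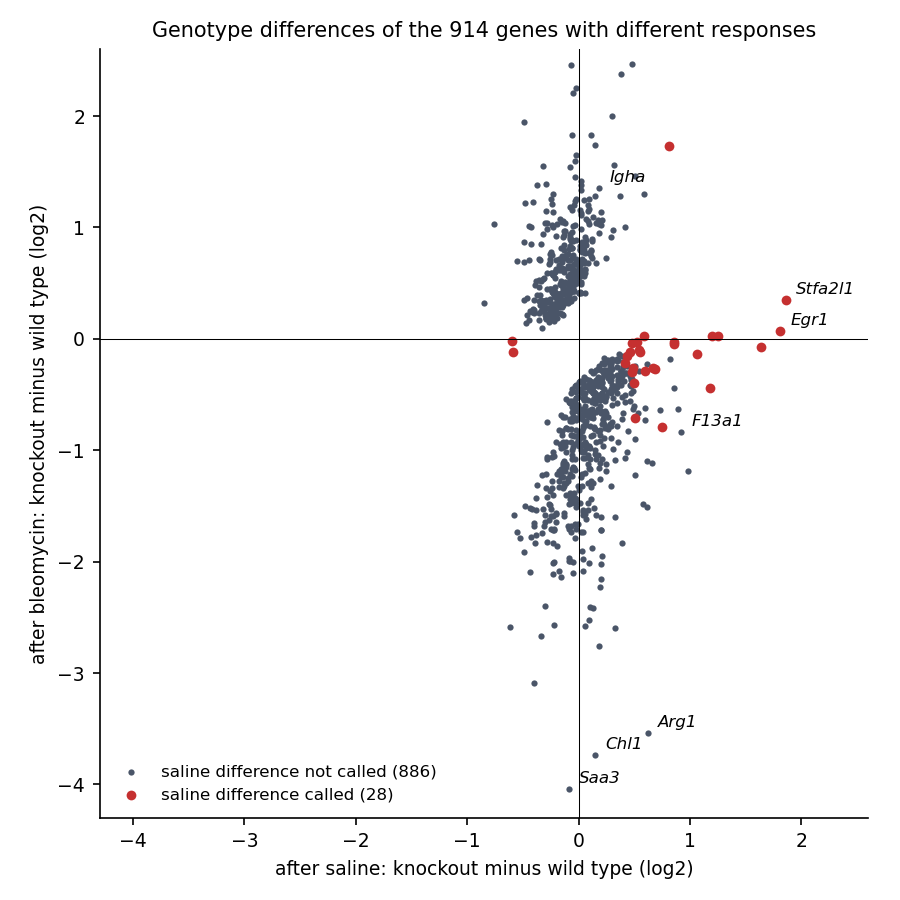
Knockout minus wild type difference (log2) after saline (horizontal axis) and after bleomycin (vertical axis) for the 914 genes whose responses differed. The points spread along the vertical axis, with Arg1, Chl1 and Saa3 lowest, and the 28 genes with a called saline difference, Egr1 and Stfa2l1 among them, lie mostly to the right.

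The remaining kept genes had small changes. Cped1, of unclear function, had -0.63 ± 0.09 and -0.68 ± 0.09, and Amz1, a metallopeptidase, 0.53 ± 0.08 in both genotypes. Of the 19 alternative settings, Cped1 was kept in 7, Amz1 in 5 and Ifitm6 in 11, and each was unresolved in the others. Of the reduced or lost genes outside the lists above, Chl1, a neural cell adhesion gene near background in saline lungs, had the third largest difference of all genes. Its values were 3.59, 3.65 and 3.68 in wild type saline lungs, 8.50, 7.70 and 7.91 in wild type bleomycin lungs, 3.60, 3.92 and 3.85 in knockout saline lungs and 3.77, 4.32 and 4.81 in knockout bleomycin lungs. The wild type bleomycin arrays stood far above the rest, and the difference was -3.88 ± 0.33 (adjusted p = 0.000152), although 1 of its 4 probe sets gave 0.17 and their mean -1.75.

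**Figure D5:**
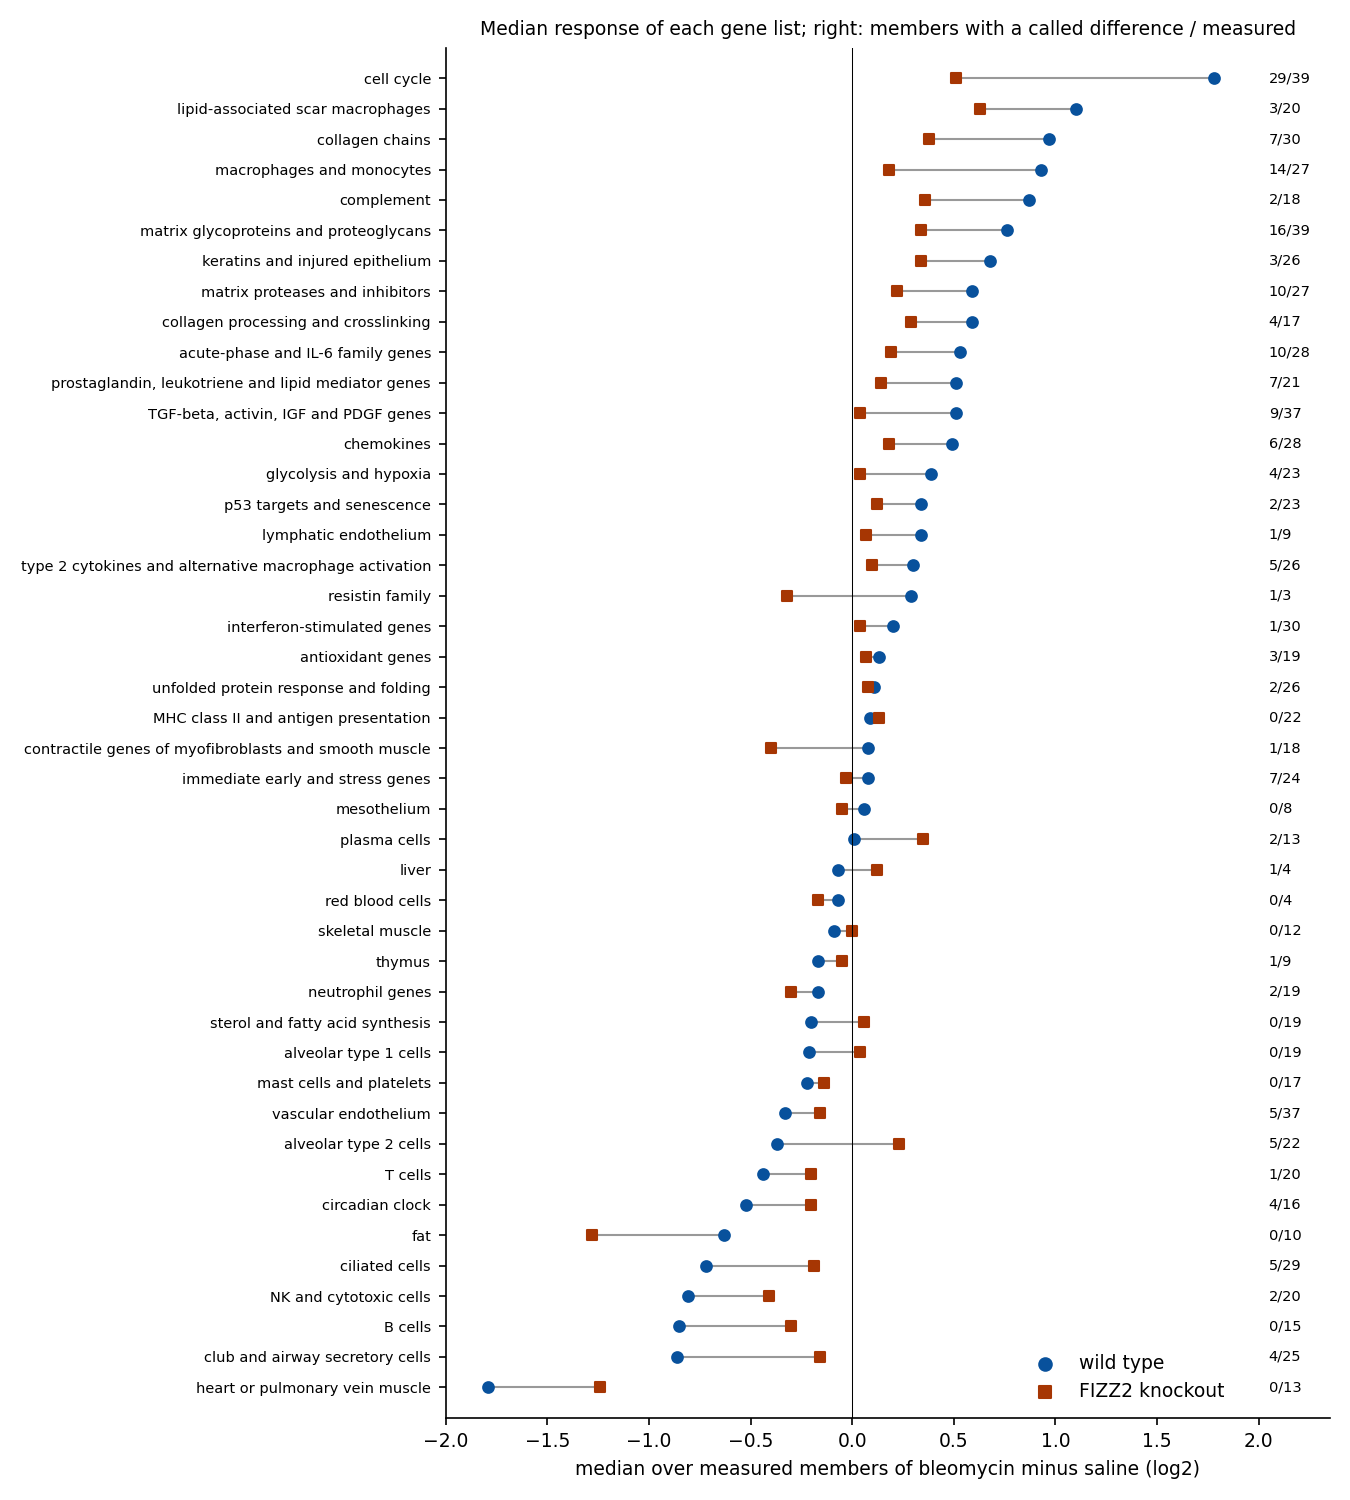
Median response (bleomycin minus saline, log2) over the measured members of each of 44 gene lists in wild type (circles) and FIZZ2 knockout lungs (squares), with the number of members with a called difference and the number measured at the right. The knockout median lies closer to 0 than the wild type median in the lists at the top, from 1.78 to 0.51 for the cell cycle, and in most of those at the bottom, with fat genes, at -0.63 and -1.28, an exception.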

How the data were processed

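Lungs of wild type and FIZZ2 knockout mice after saline or bleomycin were measured on Affymetrix arrays, 3 per group. The deposited values are log2 intensities per probe set that the authors made with RMA, and affy, RMA and limma are named without versions per the submitters' processing notes. The settings used are not given in the sources used here. For each of 18194 genes the brightest probe set on average over the 12 arrays was taken; 34958 of 45101 probe sets have 1 gene in the platform annotation, 932 several and 9211 none, and 34754 were matched to RefSeq by Entrez identifier.

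A model with 1 mean per group was fitted to all 12 arrays with limma 3.58.1 (lmFit and eBayes, R 4.3.3; 8 residual and 4.858 prior degrees of freedom), and p-values were adjusted by Benjamini-Hochberg over all 18194 genes, with a threshold of 0.05. Each SE and interval rests on 1 variance per gene, pooled over all groups and moderated by eBayes. No filter on low values was used. Array numbers limit the precision. The script was tested on simulated data for the difference between responses over 18194 genes, where 22.4% of simulated differences of 0.5 (log2), 83.6% of those of 1 and 97% of those of 2 were called, and equal responses of 0.5, 1 and 2 were termed kept in 14.9%, 74.6% and 98.5% of cases.

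The genes named are the 15 called genes with the largest difference in each direction, the 10 of each class with the largest average response, from each list up to 4 with the smallest p for the difference and up to 3 with a kept or called average response, and the resistin family. Gene models and immunoglobulin segments other than Igha were left out of the first and second of these. The members and the 44 gene lists (876 of 945 names measured) were chosen with earlier results of these data known. No arrays held identical values. Same-numbered arrays of different groups did not deviate together, so replicate numbers were not used as pairs. Alternatives covered a filter on the mean, array centring, quantile normalization, trend and robust fitting, the mean of a gene's probe sets, array weights, a stricter threshold, the definitions of kept and of the response ratio, a replicate block and leaving out each array.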

Additional observations from a re-analysis of the deposited data

Results flagged for a closer look

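The response to bleomycin differed between the genotypes, by the test of the difference itself (limma, adjusted over 18194 genes), for 914 genes. These values are given without an explanation.

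Leaving out gene models and immunoglobulin or T cell receptor segments, the 15 called differences (knockout minus wild type response, log2) that lay farthest below 0 were those of Arg1 (-4.15), Saa3 (-3.94), Chl1 (-3.88), Fst (-2.94), Pla1a (-2.93), Timp1 (-2.69), Thbs4 (-2.65), Frzb (-2.60), Rgs5 (-2.55), Ereg (-2.51), Dkk2 (-2.42), Col8a1 (-2.36), Lama1 (-2.35), Retnla (-2.33) and Dio2 (-2.23). For Dio2, a thyroid hormone deiodinase, 1 of 3 probe sets gave 0.36 and their mean -0.65. Rgs5, a regulator of G protein signalling known from pericytes, had values of 8.10, 7.37 and 7.95 in wild type saline lungs, 10.66, 10.55 and 9.78 in wild type bleomycin lungs, 8.13, 7.73 and 7.95 in knockout saline lungs and 7.39, 8.28 and 8.05 in knockout bleomycin lungs. The wild type bleomycin arrays alone were high.

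The 15 called differences that lay farthest above 0, all but 1 of them falls lost in the knockout, were those of Acoxl (2.53), Fabp1 (2.44), Cyp1a1 (2.27), Slc7a10 (2.26), Nrn1 (2.0), Bex2 (1.89), Acaa1b (1.87), Cdh16 (1.79), Gsta2 (1.75), Gzma (1.72), Krt79 (1.71), Pla2g1b (1.68), Pcolce2 (1.66), Dpep1 (1.63) and S100g (1.63). Bex2 was reduced, from -2.99 to -1.10, and its knockout bleomycin arrays, at 8.82, 7.80 and 7.68, lay between the saline and the wild type bleomycin arrays.

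The calls of 3 of these genes were lost without single arrays. For Cyp1a1, a dioxin-inducible cytochrome, the adjusted p was 0.0739 without wild type saline replicate 1, 0.0648 without wild type saline replicate 2, 0.0795, 0.0642 and 0.0632 without knockout saline replicates 1, 2 and 3, and 0.0842 and 0.0536 without knockout bleomycin replicates 1 and 2. For Pla2g1b, a secreted phospholipase whose 4 probe sets had a mean difference of 0.79, it was 0.0548 without wild type saline replicate 2, 0.0761 and 0.07 without knockout saline replicates 1 and 2, and 0.076 and 0.0504 without knockout bleomycin replicates 1 and 3. For S100g, a calcium-binding gene, it was 0.0532 without knockout saline replicate 1 and 0.0553 without knockout bleomycin replicate 1.

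F13a1 was the 1 gene called in opposite directions (difference -1.76), and Igha the 1 gene with a called wild type response that was larger in the knockout (difference 1.16).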

How the results depend on the processing

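With each array left out in turn, the number of genes called lay between 4052 and 5004 for the wild type response, 211 and 796 for the knockout response, 380 and 1052 for the difference, 4170 and 5019 for the average response, and 24 and 112 and 1653 and 3138 for the genotype difference after saline and after bleomycin. Over the same fits 279 to 906 genes were lost, 34 to 131 reduced and 4 to 22 kept, and the ratio of median responses lay between 0.418 and 0.528. At an adjusted p under 0.01 the counts were 3174 for wild type, 156 for knockout, 212 for the difference, 3044 for the average, 27 after saline, 1321 after bleomycin, 196 lost and 15 reduced. Array weights gave 1286 knockout calls, 1888 differences, 1105 saline calls, 1465 lost, 276 reduced and 20 kept genes, and a ratio of 0.497. Kept genes numbered 12 with array medians subtracted and 3649 where the interval had only to lie within 1 (log2). The ratio was 0.41 over the 200 genes with the smallest p and 0.415 over those changed at least 2-fold on average. With the replicate number as a block 601 differences were called, 581 of them among the 914, and 68 genes were reduced; the deviations of same-numbered arrays correlated between -0.297 and 0.203 over 18 pairs, 2 of them above 0.1, so the numbers do not pair the arrays. For these changes the cause was not tested, beyond the fewer arrays or the stricter threshold themselves. Of 123 named genes with a called difference, 76 kept their call under all 19 settings, 47 lost it under at least 1 and 0 changed direction. List counts moved by over 1.5 times in 239 of 836 comparisons. With array weights they were 8 for collagen processing, 10 for chemokines, 6 for complement, 5 for p53 and 6 for natural killer genes. They were also 10 for club cell, 8 for alveolar type 2, 8 for vascular endothelial, 4 for contractile and 4 for plasma cell genes. With the replicate block they were 2 for club cell, 3 for vascular endothelial, 1 for p53 and 1 for plasma cell genes. The share of differences below 0 was 59.6%, 51.7% with medians subtracted and 51.5% with array weights. Genes near background, such as Chl1 and Dkk2 in saline lungs, have fold changes that the lowest intensities limit.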
